A study of Mus musculus with 6 samples.

Results

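The genes described here encode the nuclear subunits of the mitochondrial oxidative phosphorylation system. They were taken by name from the deposited tables: every symbol beginning with Nduf, Uqcr, Atp5 or Cox4 to Cox8, together with Sdha, Sdhb, Sdhc, Sdhd, Cyc1 and Cycs, and no symbol ending as a pseudogene. The rule found 92 of the 16426 genes listed in at least 1 library. Of these, 36 belong to complex I, 8 are assembly factors of complex I, 4 belong to complex II, 9 to complex III and 16 to complex V. Another 18 were placed with complex IV and 1, Cycs, is cytochrome c. Ndufa4 and its relative Ndufa4l2 carry complex I names but were counted with complex IV, where the Ndufa4 protein is now placed. The rule takes no value from the data. Subunits encoded by mitochondrial DNA were not analysed here.

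The RNA came from 6 snap-frozen livers of mice aged 7 to 12 weeks, of mixed B6:sv129 background. In 3 livers an AAV8 vector had delivered a short hairpin RNA (shRNA) with a scrambled sequence, and in 3 it had delivered an shRNA against S1PR2, a receptor for the lipid sphingosine-1-phosphate; these are called scramble and knockdown livers. The text of the series describes male mice given the vector through the tail vein and dexamethasone, a synthetic glucocorticoid, at about 0.84 mg/kg for 7 days in drinking water. The sample labels name only the shRNA, so the glucocorticoid is taken as shared by both groups, and livers without it were not analysed here. AAV8 reaches mainly hepatocytes, and the labels name 1 hairpin per group, so loss of the receptor and other effects of that hairpin cannot be told apart. Whether each replicate is an animal of its own is not stated, so the p-values describe the scatter among these 6 samples, which may in part be technical.

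Oxidative phosphorylation takes electrons from NADH at complex I and from succinate at complex II, passes them through complex III and the soluble carrier cytochrome c to complex IV, and uses the proton gradient made on the way to form ATP at complex V. Hepatocytes are rich in mitochondria and rely on this system for the costs of glucose synthesis and urea formation. Transcripts for its nuclear subunits are abundant and are often coregulated, with the factors NRF1, GABP, YY1 and ERR alpha and the coactivator PGC-1 alpha among the known regulators. Several complex IV subunits also exist as tissue isoforms, with a liver or widespread form and a heart and muscle form.

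The libraries held 16558775 to 17410160 expected counts, and oxidative phosphorylation genes took 1.12 to 1.25% of them in scramble and 1.17 to 1.28% in knockdown livers. S1pr2 stood at 4.41, 5.23 and 6.66 CPM, counts scaled to a common library size, in scramble and 3.04, 2.20 and 2.22 CPM in knockdown livers, without overlap. It fell by 1.12 on the log2 scale (SE 0.24, adjusted p = 0.0301), and an exact two-sided permutation test over the 20 assignments of the livers gave p = 0.1, the smallest it can give. The call held in 8 of 15 alternatives. Hepatocyte transcripts dominated every library, with albumin between 56835 and 129028 CPM. Of all 12230 genes tested, 937 (7.66%) passed the edgeR quasi-likelihood test at an adjusted p under 0.05. There were 369 rises (3.02%) and 568 falls (4.64%).

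Almost nothing in the oxidative phosphorylation set passed that test. Of its 88 tested genes 1 rose (1.14%), the complex IV relative Cox7a2l, and 0 fell. An unadjusted p under 0.05 was reached by 2992 of all 12230 genes tested. In the set a further 6 reached it without passing, which makes 7 in all, with 2 higher and 5 lower in knockdown livers. Fold changes were small: log2 values ran from -0.47 (Ndufb8) to 0.63 (Cox7a2l), and the median absolute change was 0.120 against 0.226 over all genes tested. The 95% interval of the change lay within 2-fold for 87 of the 88 genes (98.9%, against 72.0% of all genes tested) and within 1.5-fold for 69 (78.4%, against 42.6%). The exception to the 2-fold bound was Ndufa4l2, a transcript near the detection limit. These are abundant transcripts, with a median of 1799 expected counts per library. Their spread within groups, a median SD of 0.154 on the log2 CPM scale, was close to that of 1555 genes of similar level (0.147). The DESeq2 Wald test, which passed more genes throughout (1461, 11.9%), called 4 of the 88, among them a rise of Cox7a2l and falls of Atp5f1 and Ndufb8.

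**Figure D1:**
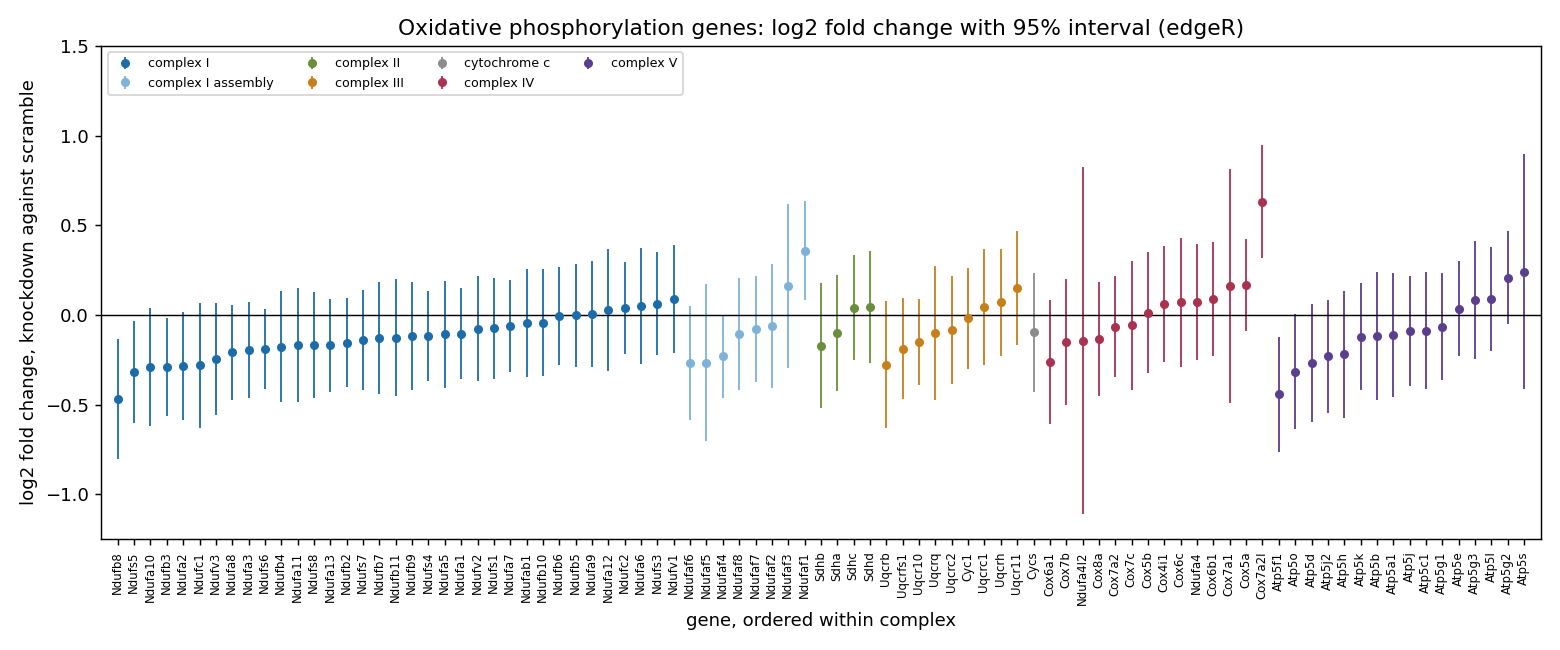
Log2 fold change of 87 tested oxidative phosphorylation genes, knockdown against scramble (vertical axis), ordered within complex (horizontal axis). Points are edgeR estimates from 3 against 3 livers and lines their 95% intervals, not adjusted for the number of genes. Most intervals cross 0, estimates lie between -0.47 and 0.63, and Cox7a2l stands highest.

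Measured per length, the set is among the strongest expressed in liver. FPKM, the fragment count scaled for transcript length and depth, averaged at least 100 over the 6 livers for 55 of the 92 genes, whereas 5.45% of all genes tested reached that level (666 genes). The highest mean was that of Atp5b, the catalytic beta subunit of ATP synthase, at 655 FPKM, followed by Ndufa4 at 555 and Uqcrq at 498. The complexes and the assembly factors differed in median level, while most of their ranges overlapped. Complex I subunits lay between 17.3 (Ndufa11) and 247 FPKM (Ndufb9) with a median of 91.9, while complex I assembly factors lay between 1.36 (Ndufaf5) and 22.6 (Ndufaf8) with a median of 9.10. The median was 126 FPKM for complex II, 208 for complex III and 251 for complex V, and 326 for the 14 tested genes of complex IV. Very short transcripts such as those of Uqcrq, Cox6a1 and Cox8a are prominent among the highest FPKM values, and the estimate per length is less certain for transcripts close to the fragment size.

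**Figure D2:**
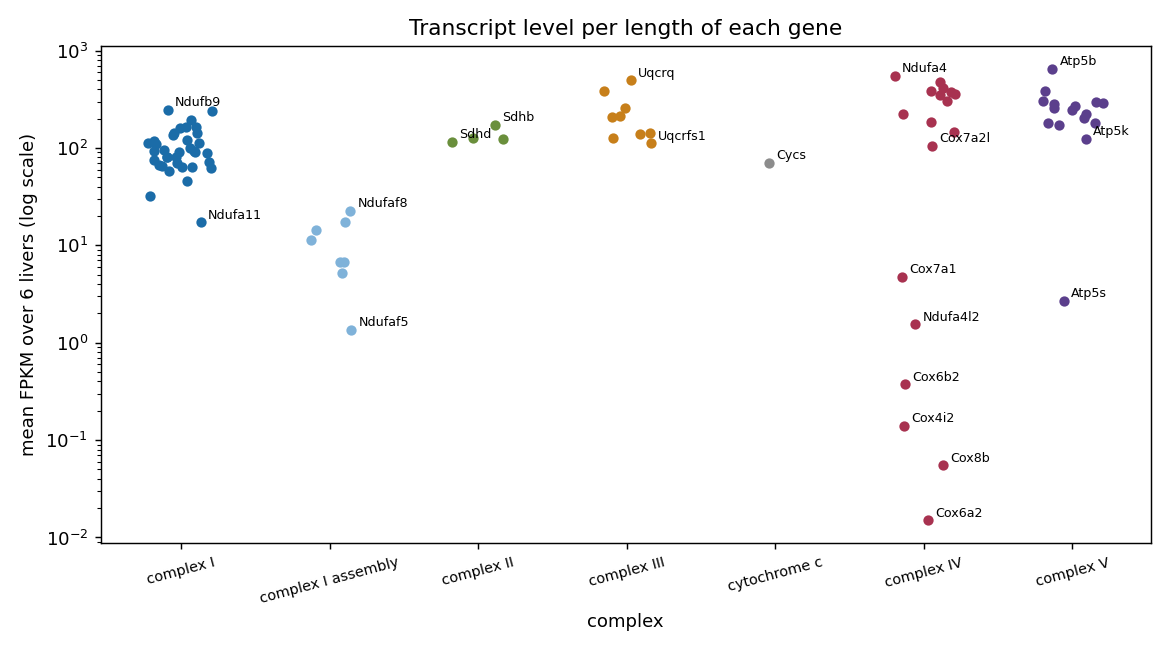
Mean level of each oxidative phosphorylation gene in FPKM (log scale), by complex, over the 6 livers. Atp5b is the highest at 655 FPKM, complex I assembly factors lie at 1.36 to 22.6 FPKM, and the 4 complex IV isoforms below the count filter lie at 0.015 to 0.375 FPKM.

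Complex I, the NADH dehydrogenase, is the largest complex. All 36 of its subunits found by the naming rule were tested, and 0 passed. The median log2 change was -0.127, with 30 subunits below 0 and 6 above. The 7 core subunits carry the flavin and the iron-sulfur clusters, and 5 of them were below 0 and 2 above. Ndufs1, the large iron-sulfur subunit, stood at 137, 127 and 122 CPM in scramble and 109, 136 and 122 CPM in knockdown livers (log2 change -0.08, SE 0.12). Ndufv1, the flavin subunit that accepts electrons from NADH, stood at 111, 114 and 108 against 99.4, 134 and 121 CPM (log2 change 0.09, SE 0.13). Both overlapped between the groups. Of the other iron-sulfur subunits, Ndufs8 had a log2 change of -0.17 (SE 0.13, adjusted p = 0.469).

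The set held 29 accessory subunits, which surround the core and stabilise it. Of these, 25 were below 0 and 4 above, in a range of -0.47 to 0.05. Ndufb8 belongs to the membrane arm. It stood at 184, 164 and 169 CPM in scramble and at 101, 136 and 137 CPM in knockdown livers. These groups did not overlap, and its log2 change of -0.47 (SE 0.15) had an adjusted p of 0.0941. Ndufs5, another membrane arm subunit, stood at 54.7, 47.7 and 55.0 against 35.8, 44.9 and 45.5 CPM (log2 change -0.32, SE 0.12, adjusted p = 0.160). In both genes the lowest value was that of knockdown liver 1; without that liver the log2 change of Ndufb8 was -0.34, with an adjusted p of 0.136. Ndufb9, the most abundant subunit per length, stood at 167, 157 and 161 against 126, 161 and 160 CPM (log2 change -0.12, SE 0.13), with knockdown liver 1 alone below the rest.

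The 8 complex I assembly factors Ndufaf1 to Ndufaf8, which help to build the complex and are not part of the finished enzyme, also had 0 genes past the test. The changes ran from -0.27 (Ndufaf6) to 0.36 (Ndufaf1), with 6 below 0 and 2 above. Ndufaf1, a factor for the membrane arm, differed from most of the set in being higher in every knockdown liver. It stood at 16.9, 18.1 and 19.3 CPM in scramble and 20.1, 25.2 and 24.4 CPM in knockdown livers (log2 change 0.36, SE 0.12, adjusted p = 0.113). It passed only in the fits to log2 FPKM, where the median of all genes is itself shifted upwards (adjusted p = 0.0292 and 0.0308 with pseudocounts of 0.1 and 1). Ndufaf4 was lower in every knockdown liver, at 49.3, 44.9 and 41.5 against 36.9, 38.4 and 40.3 CPM (log2 change -0.23, SE 0.10, adjusted p = 0.208). Ndufaf6 was also lower in every knockdown liver, at 8.70, 7.40 and 7.87 against 6.17, 6.80 and 6.91 CPM (log2 change -0.27, SE 0.14, adjusted p = 0.276). Neither passed.

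Complex II, succinate dehydrogenase, is shared with the tricarboxylic acid cycle, and 0 of its 4 subunits passed. Sdha, the flavoprotein that oxidises succinate, stood at 405, 374 and 361 CPM in scramble and 306, 383 and 373 CPM in knockdown livers (log2 change -0.10, SE 0.14). Sdhb, the iron-sulfur subunit, stood at 198, 196 and 198 against 139, 194 and 192 CPM (log2 change -0.17, SE 0.15, adjusted p = 0.541). The Sdhb groups did not overlap in CPM, but they did in deposited FPKM. In CPM, knockdown livers 2 and 3 lay close to the scramble livers and knockdown liver 1 stood apart from all 5. The membrane anchors Sdhc and Sdhd had log2 changes of 0.04 each, with intervals of -0.25 to 0.33 and -0.27 to 0.36.

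Complex III, the cytochrome bc1 complex, had 0 of 9 subunits past the test and a median log2 change of -0.083. Its catalytic subunits are Uqcrfs1, the Rieske iron-sulfur protein, and Cyc1, cytochrome c1. Uqcrfs1 stood at 165, 150 and 155 CPM in scramble and 121, 146 and 146 CPM in knockdown livers, without overlap (log2 change -0.19, SE 0.12, adjusted p = 0.393). In deposited FPKM the Uqcrfs1 groups overlapped. Cyc1 stood at 176, 168 and 162 against 148, 181 and 170 CPM and did not separate the groups (log2 change -0.02, SE 0.12). Of the small accessory subunits, Uqcrb had the lowest estimate, at 212, 192 and 210 against 135, 186 and 185 CPM (log2 change -0.28, SE 0.15, adjusted p = 0.314), and Uqcr11 the highest, at 0.15 (SE 0.14). Uqcr10 and Uqcrq had log2 changes of -0.15 and -0.10. The core proteins Uqcrc1 and Uqcrc2 lay at 0.05 and -0.08. Cytochrome c itself (Cycs), which shuttles electrons from complex III to complex IV, stood at 259, 200 and 217 CPM in scramble and 188, 225 and 219 CPM in knockdown livers (log2 change -0.10, SE 0.14, adjusted p = 0.738), with the groups interleaved. Cycs counts were fractional in all 6 libraries, as when reads are shared with other loci, so its level is less certain.

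Complex IV, cytochrome c oxidase, held the only gene of the set that passed. Cox7a2l, also known as SCAF1, is a relative of the Cox7a subunit that can join complex III to complex IV in respiratory supercomplexes. The mice were of mixed background, and which Cox7a2l alleles each carried was not examined here. Cox7a2l stood at 73.3, 96.3 and 97.4 CPM in scramble and 133, 147 and 134 CPM in knockdown livers, a mean of 89 ± 13.6 against 138 ± 7.5 (SD, n = 3 each). Each knockdown liver was above every scramble liver, and knockdown liver 1, low for most of the set, was not low here. Cox7a2l rose 1.55-fold (log2 change 0.63, SE 0.14, 95% interval 0.32 to 0.95, adjusted p = 0.0321). It passed in all 9 other settings with all 6 livers, with adjusted p between 0.00109 and 0.0401. It did not pass when any of the 6 livers was left out: the adjusted p was 0.051, 0.0768 and 0.0679 without scramble livers 1 to 3 and 0.0538, 0.125 and 0.0928 without knockdown livers 1 to 3, with log2 changes of 0.51 to 0.70.

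The constitutive subunit Cox7a2, whose place in complex IV Cox7a2l can take in supercomplexes, did not pass the test. Cox7a2 stood at 111, 104 and 116 CPM in scramble and 90.8, 110 and 115 CPM in knockdown livers (log2 change -0.07, SE 0.12, 95% interval -0.35 to 0.22). The summed FPKM of the pair was therefore divided differently. Cox7a2l made up 30.8, 38.5 and 36.2% of it in scramble and 49.7, 47.3 and 44.1% in knockdown livers. The shares did not overlap; within-liver shares do not depend on how libraries are scaled, and they were not tested apart from the fit of Cox7a2l itself.

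**Figure D3:**
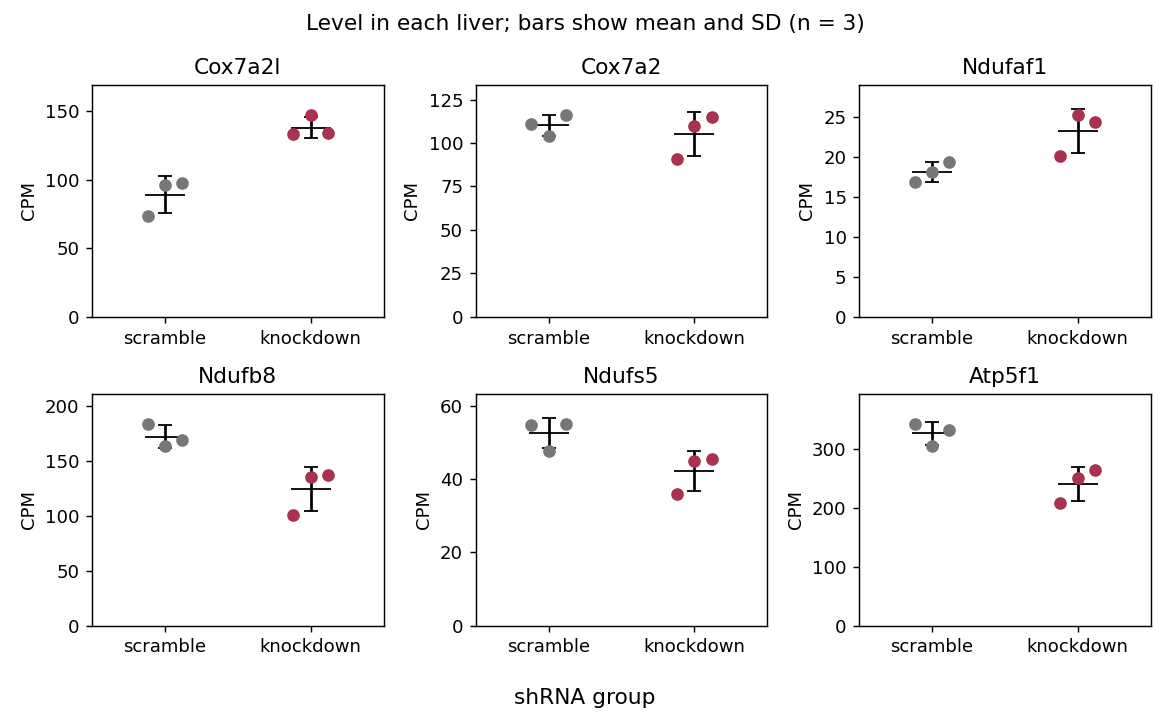
Level in CPM (vertical axes from 0) of Cox7a2l, its relative Cox7a2, and 4 further genes with a small unadjusted p, in each scramble and knockdown liver (n = 3 each); lines show the mean and SD. Cox7a2l lies at 133 to 147 CPM in knockdown livers, above all scramble livers (73.3 to 97.4 CPM), while Cox7a2 overlaps between the groups.

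The stretch before the start site is shown for Cox7a2l, as the gene that passed, for Cox7a2 beside it, and for Cycs and Cox6a1, which hold letters recognised by classical regulators of the set. Each is the 250 bases upstream of the RefSeq start on the gene's own strand, the minus strand in all 4 genes, in build GRCm38.p6. Capitals mark a match to GCGCATGC (core of the NRF1 motif), CCGGAAG (ETS, GABP), AAGGTCA (ERR), AAGATGGCG (YY1) or GGGCGGGG (SP1) on either strand. The positions in the same order are chr17:83514334-83514583, chr9:79759854-79760103, chr6:50566570-50566819 and chr5:115348959-115349208.
Cox7a2l: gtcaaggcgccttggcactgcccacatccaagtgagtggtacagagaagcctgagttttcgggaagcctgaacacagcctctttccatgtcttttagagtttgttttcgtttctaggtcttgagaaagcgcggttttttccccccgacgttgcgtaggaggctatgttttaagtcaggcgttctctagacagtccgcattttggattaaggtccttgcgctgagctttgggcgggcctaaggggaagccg
Cox7a2: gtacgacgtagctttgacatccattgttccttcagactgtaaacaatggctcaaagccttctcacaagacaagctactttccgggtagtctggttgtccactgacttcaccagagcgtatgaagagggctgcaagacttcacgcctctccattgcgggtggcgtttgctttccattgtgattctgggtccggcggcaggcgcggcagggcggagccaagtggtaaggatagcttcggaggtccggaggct
Cycs: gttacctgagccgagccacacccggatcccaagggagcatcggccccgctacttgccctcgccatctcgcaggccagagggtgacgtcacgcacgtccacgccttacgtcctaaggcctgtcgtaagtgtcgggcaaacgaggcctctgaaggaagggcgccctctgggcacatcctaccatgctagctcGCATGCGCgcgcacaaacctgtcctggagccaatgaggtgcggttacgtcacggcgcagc
Cox6a1: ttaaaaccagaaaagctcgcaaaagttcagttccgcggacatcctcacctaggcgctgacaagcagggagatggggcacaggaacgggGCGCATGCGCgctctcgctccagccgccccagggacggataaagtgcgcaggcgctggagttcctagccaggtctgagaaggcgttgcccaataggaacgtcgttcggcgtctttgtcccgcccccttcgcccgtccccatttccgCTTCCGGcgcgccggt
None of the 5 words was found before Cox7a2l or Cox7a2. In Cycs the NRF1 core begins at position -60, counted back from -1 at the last base before the start. In Cox6a1 the NRF1 core is present on both strands in overlapping letters, beginning at -162 and -160, and an ETS word begins at -16.

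Over the whole set, 76 of the 92 genes matched the RefSeq promoter table, with 81 windows of 300 bases (250 before and 50 after the start). The NRF1 core was found in 16.0% of these windows, against 4.95% of the 12537 windows of genes tested. The YY1 word was found in 9.88% against 2.91%, the ERR word in 9.88% against 3.45% and the ETS word in 22.2% against 16.9%, while the SP1 word was found in 19.8% against 31.6%. Over all 32851 windows of the table the shares were 2.71% for NRF1, 1.40% for YY1, 4.72% for ERR, 8.86% for ETS and 17.6% for SP1. Transcripts of the factors themselves did not pass the test: the log2 change was 0.24 for Nrf1 (adjusted p = 0.349), 0.10 for Gabpa (0.664), -0.14 for Yy1 (0.462), -0.25 for Esrra (0.403) and -0.13 for Ppargc1a, which encodes PGC-1 alpha (0.861). A word match is a description of the sequence and no evidence of binding.

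The catalytic core of complex IV is encoded by mitochondrial DNA, and the nuclear genes supply the subunits around it. The 11 standard nuclear subunits lay between -0.26 and 0.17, with 6 above 0 and 5 below, and 0 passed. Cox5a, which sits on the matrix side, was higher in every knockdown liver, at 149, 135 and 148 against 153, 173 and 159 CPM, but its log2 change of 0.17 (SE 0.11) had an adjusted p of 0.413. Cox4i1, the large regulatory subunit, stood at 279, 264 and 283 against 243, 311 and 307 CPM (log2 change 0.06, SE 0.14). Cox5b was near equality, at 0.01 (SE 0.15). Cox6a1, the liver form of subunit 6a, was lower in every knockdown liver, at 292, 258 and 246 against 185, 237 and 242 CPM (log2 change -0.26, SE 0.15, adjusted p = 0.329). Its groups overlapped in deposited FPKM. Ndufa4 stood at 245, 243 and 267 against 225, 278 and 293 CPM and overlapped (log2 change 0.07, SE 0.14).

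The tissue isoforms followed the liver pattern in both groups. Cox6a1 averaged 477 FPKM and its heart and muscle counterpart Cox6a2 0.015, with 1 expected count in 1 of the 6 livers. Cox8a averaged 410 FPKM and its muscle counterpart Cox8b 0.055, listed in 2 livers. Cox4i1 averaged 381 FPKM and Cox4i2, a form of lung and low oxygen, 0.140. The testis form Cox6b2 averaged 0.375 FPKM. These 4 minor isoforms fell below the count filter and have no test. Cox7a1, the heart and muscle form of subunit 7a, was tested at 4.78 FPKM and overlapped between the groups, at 2.08, 1.37 and 1.45 against 1.72, 2.02 and 1.76 CPM. The skeletal muscle marker Mylpf averaged 0.876 CPM and Acta1 0.161 CPM.

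Complex V, the ATP synthase, had 0 of 16 genes past the test and a median log2 change of -0.101. In the soluble F1 part, which makes ATP, Atp5b stood at 1362, 1245 and 1252 CPM in scramble and 1060, 1315 and 1186 CPM in knockdown livers (log2 change -0.12, SE 0.16). Its partner Atp5a1 stood at 1054, 949 and 951 against 818, 1000 and 913 CPM (log2 change -0.11, SE 0.15). Both overlapped. The central stalk subunit Atp5d was lower in every knockdown liver, at 321, 297 and 274 against 212, 270 and 258 CPM (log2 change -0.27, SE 0.14, adjusted p = 0.292). In deposited FPKM its groups overlapped, at 340, 301 and 287 against 268, 291 and 290. In the membrane part and the side stalk, Atp5f1 had the smallest p. This gene, for the long b subunit that holds the stalk, stood at 343, 306 and 332 against 208, 251 and 264 CPM, without overlap (log2 change -0.44, SE 0.14, adjusted p = 0.0975). Its counts were fractional in all 6 libraries, as when reads are shared with another locus. Atp5o, which ties the side stalk to F1, was also lower in every knockdown liver, at 185, 151 and 174 against 117, 149 and 143 CPM (log2 change -0.32, SE 0.14, adjusted p = 0.210). The Atp5o groups overlapped in deposited FPKM.

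The rotating c ring is built of an identical mature peptide encoded by the 3 genes Atp5g1, Atp5g2 and Atp5g3, none of which passed. Atp5g2 moved from 96.3, 101 and 116 CPM to 114, 123 and 125 CPM, with scramble liver 3 above knockdown liver 1 (log2 change 0.21, SE 0.11, adjusted p = 0.309). Atp5g1 and Atp5g3 had log2 changes of -0.07 and 0.08. Within the summed FPKM of the family, Atp5g1 made up 37.0, 34.7 and 34.8% in scramble and 32.9, 32.3 and 32.4% in knockdown livers. Atp5g2 made up 20.9, 24.9 and 25.9% against 27.9, 25.2 and 26.3%, and Atp5g3 42.0, 40.4 and 39.3% against 39.2, 42.5 and 41.3%. Only the Atp5g1 share separated the groups, by a few percentage points; these shares were not tested.

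The deposited tables also give the mean length of each gene's transcripts, weighted by their abundance, which is independent of the level. It moves when the isoforms of a gene are used differently. The Ndufv3 transcripts averaged 571, 621 and 622 bases in scramble and 675, 688 and 703 bases in knockdown livers. Ndufv3 encodes an accessory subunit next to the NADH site of complex I that is known to exist in a short and a long form, and it was singled out after the values were seen. Every knockdown liver was above every scramble liver (log2 difference 0.19, unadjusted p = 0.00698). The adjusted p was 0.329 by limma over the 2409 multi-transcript genes with a mean of at least 100 counts, of which 0 passed and 182 had an unadjusted p under 0.05. Groups did not overlap in 306 of those genes (12.7%). The other 9 members in that test varied by at most 3.3% over the 6 livers. The Ndufv3 level itself stood at 66.5, 69.3 and 69.1 against 46.2, 65.1 and 61.5 CPM (log2 change -0.25, SE 0.14, adjusted p = 0.316).

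**Figure D4:**
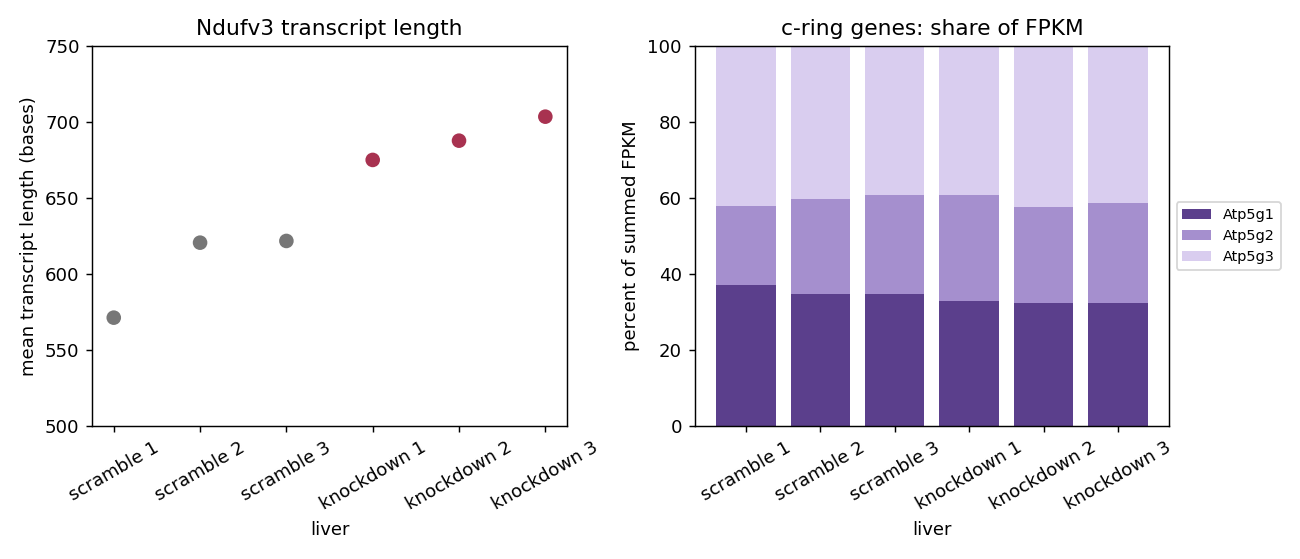
Left, abundance-weighted mean transcript length of Ndufv3 in bases in each liver (the axis does not start at 0); the knockdown livers lie at 675 to 703 bases and the scramble livers at 571 to 622. Right, share of each c-ring gene in their summed FPKM per liver, with Atp5g1 at 34.7 to 37.0% in scramble and 32.3 to 32.9% in knockdown livers.

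Although few genes passed, the set leaned to one side: 62 of the 88 tested genes had estimates below 0 and 26 above, and the median log2 change was -0.101, against 0.012 over all genes tested. The groups did not overlap for 23 genes of the set, 20 lower and 3 higher (Cox7a2l, Cox5a and Ndufaf1). That is 26.1%, against 31.9% of all genes tested (16.8% lower and 15.1% higher). These counts changed with the scaling: 4 higher and 9 lower with upper-quartile factors, 15 higher and 4 lower with totals of counts only, and 15 higher and 5 lower in deposited FPKM. The counts over all 12230 genes tested moved the same way, from 1851 higher and 2055 lower with TMM. They were 2382 and 1600, 3230 and 988, and 3151 and 993 in the order just given. By complex, the median was -0.127 for complex I, -0.031 for complex II, -0.083 for complex III and -0.101 for complex V, with complex IV at 0.037. The medians of complexes I, II, III and V were above 0 in the fits to log2 FPKM. That of complex IV was above 0 with each of the scalings run, and -0.022 without the count filter. With 1 liver left out, the complex IV median ran from -0.040 (without knockdown liver 2) to 0.151 (without knockdown liver 1). In the FPKM fits, 57 of 90 genes of the set were above 0 and 33 below; the median over all genes rose to 0.157 (pseudocount 0.1), and that of the set to 0.041. Relative to all genes the set lay at -0.113 with TMM, -0.114 with upper-quartile factors, -0.115 on log2(FPKM + 0.1) and -0.061 on log2(FPKM + 1).

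The lean rested on knockdown liver 1. The mean log2 level of the 88 genes relative to the scramble mean was 0.019, -0.039 and 0.020 in scramble livers and -0.301, 0.028 and 0.012 in knockdown livers 1 to 3. Knockdown liver 1 held the lowest value for 78 of the 88 genes (88.6%), against 22.7% of all genes tested and 36 of 78 mitochondrial ribosomal proteins (46.2%). With TMM every complex was low in that liver, from -0.185 for complex IV to -0.372 for complex I. The complex IV mean includes Cox7a2l, at 0.589 there; its 11 standard subunits alone stood at -0.263, 0.092 and 0.091 in knockdown livers 1 to 3. Knockdown livers 2 and 3 stood at 0.179 and 0.095 for complex IV and between -0.034 and 0.068 for the other complexes. Without knockdown liver 1 the median log2 change of the set was 0.000, with 45 genes above 0 and 43 below, and 0 genes passed. Among the livers then left, 22 genes were higher and 20 lower without overlap. These were 25% and 22.7% of the set, near the 22% and 21.7% of all genes tested. With totals of counts as the only scaling, knockdown liver 1 was lowest for 22 of the 88 genes (25%, against 6.93% of all genes). The TMM factor of knockdown liver 1 was the largest, at 1.154. The median level of the set there, relative to the scramble mean, was -0.290 with TMM and -0.011 with totals only. That of all genes tested was 0.016 and 0.285. The low level of the set in that liver was thus relative to other genes. The median of the set minus that of all genes in knockdown liver 1 was -0.306 with TMM and -0.296 with totals only. In bulk tissue, fewer cells of a type and less RNA per cell cannot be told apart.

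**Figure D5:**
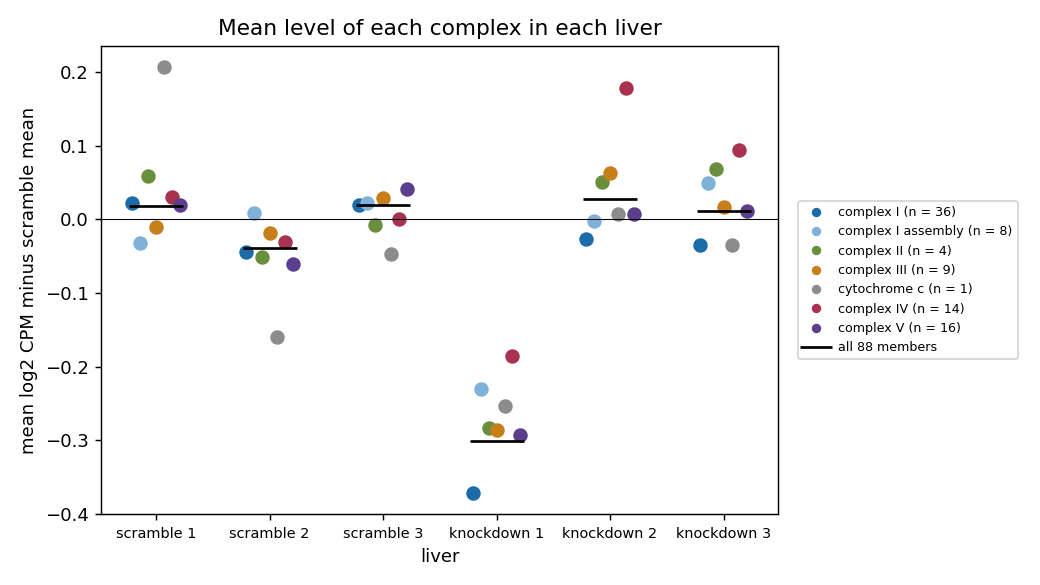
Mean log2 CPM of the tested genes of each complex, minus the mean of the scramble livers (vertical axis), in each of the 6 livers; the black line is the mean over all 88 genes. In knockdown liver 1 every complex lies between -0.185 and -0.372, while the other 5 livers lie between -0.160 and 0.207.

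Knockdown liver 1 also differed in cell type markers. The summed level of 8 hepatocyte markers was 81805 CPM there and 117006 to 156849 CPM in the other livers. Most of that sum was albumin, which averaged 94541 CPM. Of the 8 markers, 5 were lowest in knockdown liver 1, against 22.7% of all genes tested. Their mean log2 level relative to the scramble mean was -0.351 in that liver and -0.163 to 0.126 in the others. The summed level of 7 macrophage markers was 252 CPM in knockdown liver 1 against 91.8 to 162, and that of 7 stellate markers 412 against 201 to 376. That of 5 cholangiocyte markers was 105 against 27.7 to 54.5 CPM, of which Spp1 reached 84.7 CPM. Mean log2 levels relative to the scramble mean were 1.217, 0.800 and 0.741 for these lists in knockdown liver 1. The highest in any other liver were 0.584, 0.527 and 0.480. Between the groups, the cholangiocyte markers Krt7 and Krt19 had estimates below 0 and the other 3 above. None of the macrophage, stellate, cholangiocyte or hepatocyte markers passed the test between the groups. Endothelial markers were higher in all 3 knockdown livers, at 225, 231 and 210 CPM against 175, 187 and 182, and 4 of 8 rose (Cdh5, Kdr, Tek and Tie1), against 3.02% of all genes tested. Lyve1, of the same list, had a log2 change of -0.83 that did not pass (adjusted p = 0.227). T and B cell markers averaged at most 0.133 CPM each, and the fat markers Adipoq and Plin1 0.0304 and 0.0102 CPM. Elovl3, also on the fat list, averaged 42.1 CPM, between 1.96 and 82.6 CPM by liver. The part of these differences in the levels of the oxidative phosphorylation genes was not tested.

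Other mitochondrial genes were counted in the same fit. Of 47 assembly factors outside the naming rule 0 rose and 3 fell, a share near the 4.64% of falls over all genes tested, and the median log2 change was -0.042. Ecsit, a complex I assembly factor that works with Ndufaf1, fell from 37.7, 34.1 and 33.7 CPM to 12.6, 16.2 and 16.3 CPM (log2 change -1.23, SE 0.13, adjusted p = 0.00512). Sdhaf1, which helps to insert the iron-sulfur clusters of Sdhb, fell from 15, 19.5 and 18.9 CPM to 4.65, 6.86 and 7.67 CPM (log2 change -1.48, SE 0.20, adjusted p = 0.00767). Both passed in all 15 alternatives. In both, knockdown livers 2 and 3 lay far below the scramble livers as well. Sco1, which delivers copper to complex IV, fell by 0.49 on the log2 scale (adjusted p = 0.0433, passed in 3 of 15 alternatives), with fractional counts in all 6 libraries.

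The other mitochondrial lists were short, and their counts stand beside the same 4.64% of falls. The share was above it for the tricarboxylic acid cycle and carrier lists, on 2 genes each. Of 18 genes of the tricarboxylic acid cycle and the pyruvate dehydrogenase complex, 2 fell and 0 rose. Both belong to pyruvate dehydrogenase, which feeds the cycle: Pdhx fell from 54.2, 41.5 and 55.4 CPM to 22.4, 24.7 and 23.5 CPM (log2 change -1.10, SE 0.13, adjusted p = 0.00531), and Pdhb fell by 0.57 on the log2 scale (adjusted p = 0.0481, passed in 6 of 15 alternatives). Of 22 genes of the outer membrane and protein import, 1 fell, the matrix chaperonin Hspd1, from 308, 243 and 271 CPM to 127, 131 and 131 CPM (log2 change -1.08, SE 0.13, adjusted p = 0.00531). Of 15 carriers and related inner membrane genes, 2 fell. Slc25a1, the citrate carrier, fell by 0.72 on the log2 scale (adjusted p = 0.0253) and Slc25a12, an aspartate-glutamate carrier, by 0.51 (adjusted p = 0.0465), passing in 10 and 4 of 15 alternatives. Of 19 regulators of mitochondrial biogenesis and of 78 mitochondrial ribosomal proteins 0 passed. Their median log2 changes were 0.058 and -0.008. An unadjusted p under 0.05 was reached by 1 and 8 of them, and by 2992 of all 12230 genes tested.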

How the data were processed

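RNA-seq tables of 6 livers (3 scramble, 3 knockdown) were used. The tools named in the submitters' processing notes are RSEM 1.2.12, HISAT2, Bowtie2 and DESeq2, with the mm9 build; tool order, read filters and strandedness were not given in the sources used here. Deposited tables hold, per gene, an expected count (RSEM's estimate of fragments, unscaled), FPKM scaled by the authors for transcript length and library size, and a mean transcript length. No coordinates were taken from mm9.

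Expected counts were rounded, filtered with filterByExpr (minimum count 10; 88 of 92 members and 12230 genes in all remained) and scaled by TMM (trimmed mean of M-values). Groups were compared with the edgeR 4.0.16 quasi-likelihood test (robust, two-sided, R 4.3.3), with Benjamini-Hochberg adjustment over all genes tested and a threshold of 0.05; intervals are at 95%. CPM are counts per 1000000 of the TMM-scaled library. Genes not listed in a table counted as 0. Log2 transcript length was compared with limma 3.58.1. DESeq2 1.42.0, limma-voom, other scalings and filters, limma on log2 FPKM, a replicate block and each liver left out in turn were alternatives. Scripts were tested on simulated data.

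The members, the other lists and the tests were chosen with earlier results of these data known. Named genes were members past the test, the 3 smallest p and 2 highest FPKM per complex, the catalytic subunits, isoform pairs, members below the filter and, of each other list, up to 4 genes past the test; any other member named was chosen after its values were seen. A planned comparison of isoform proteins was not run. Values of 1 member are not reported here, though it is in the counts and medians.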

Additional observations from a re-analysis of the deposited data

How the results depend on the processing

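Most of the 51 named genes fitted were not called, and for those that were, none of 15 alternatives reversed the sign of the call. Estimates of genes not called could change sign. That of Atp5a1 was -0.113 in the main fit and 0.033 in the fit to log2(FPKM + 0.1). The number of genes called over all genes was 1461 with the DESeq2 Wald test, 808 with the replicate block and 231 to 643 with 1 liver left out; the number of oxidative phosphorylation genes called was 4 with DESeq2, 2 in each fit to log2 FPKM, 1 with the replicate block and 0 whichever liver was left out. Of the calls over all genes, 60.6% were falls with TMM, 48.5% with upper-quartile factors and 30.4 and 30.6% in the fits to log2 FPKM with pseudocounts of 0.1 and 1. In those FPKM fits, where the median of all genes was 0.157 and 0.102, the median log2 change was 0.041 and 0.041 for the set, 0.011 and 0.011 for complex I, 0.051 and 0.046 for its assembly factors, 0.113 and 0.112 for complex II, 0.060 and 0.060 for complex III and 0.042 and 0.042 for complex V. With 1 liver left out, the median ran from -0.149 to 0.000 for the set and from -0.199 (without knockdown liver 3) to -0.002 (without knockdown liver 1) for the assembly factors. The replicate numbers were not taken as pairs: same-numbered livers deviated together with correlations of -0.0623, 0.222 and -0.116, and only number 2 correlated best with its own number. Of 38 named members fitted, 33 kept the same side of the threshold throughout; Cox7a2l, Ndufaf1, Ndufb8 and Atp5f1 were among those that did not. With 3 livers a group the median interval reached 0.313 either side of a log2 estimate, so smaller changes of a single subunit were not resolved.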

Other observations

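Genes for the cytosolic ribosome, which like the oxidative phosphorylation set are abundant, short and shared by all cell types, moved differently in these livers. Of 92 tested cytosolic ribosomal protein genes 40 rose and 0 fell, against 3.02% and 4.64% of all genes tested, with a median log2 change of 0.617. Their mean log2 level relative to the scramble mean was -0.254, 0.034 and 0.220 in scramble livers and 0.575, 0.591 and 0.489 in knockdown livers 1 to 3, so knockdown liver 1 was not low for them and held the lowest value for 2 of the 92. Rps27 stood at 76.5, 101 and 118 CPM in scramble and 180, 206 and 196 CPM in knockdown livers (log2 change 0.98, SE 0.17, adjusted p = 0.0157), and Rpl37, Rps19 and Rpl17 rose by 0.88, 0.97 and 0.87 (adjusted p = 0.0166, 0.0192 and 0.0205). These 4 genes passed in 12 or 13 of 15 alternatives. Ribosomal protein genes have many processed pseudogenes, and the counts of Rpl37 were fractional in all 6 libraries.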
